A study of Mus musculus with 8 samples.

Results

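The 51 genes described here encode the proteins that carry fatty acids into muscle cells, burn them in mitochondria, make them anew, or store and release them as triglyceride. They were taken by name from a list set by role and matched to the 21938 protein-coding genes of the mouse annotation GENCODE M21, and all 51 were found. H3K27ac, an acetyl mark on histone H3 found at promoters and enhancers in use, had been mapped by CUT&RUN, in which an antibody-tethered nuclease cuts out the DNA beside the mark. The study deposited the differential regions only, as a list of regions where the mark was higher and a list where it was lower in myotubes lacking Nrip1. A region was tied to a gene by either of a pair of rules: the gene held the protein-coding start closest to the centre of the region, or the centre lay within 100 kb of one of its annotated starts. Of 11179 differential regions, 27 had a lipid metabolism gene as the nearest, 78 lay within 100 kb of one, and 79 met either rule.

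The 8 libraries formed 4 groups of 2: Nrip1 knockout myotubes with the H3K27ac antibody, control myotubes with the same antibody, and each kind of myotube with a nonspecific IgG. The knockout came from C57BL/6J mice with loxP sites around the coding exon of Nrip1 (Nrip1 fl/fl) and a Cre recombinase, described as striated muscle-specific and driven by the muscle creatine kinase promoter; controls were Cre-negative littermates. That promoter is active mainly in differentiated muscle cells, and the extent of deletion in these cultures was not measured here. Both kinds of culture were grown from satellite cells of the gastrocnemius, differentiated for 4 days, and the nuclei were pooled before they were divided between antibodies. Mice were 8 to 16 weeks of age in the methods for the animal work as a whole, and neither the age for these cultures nor the number of animals that gave each was stated separately in the sources used here. Because each list holds positions with no value per library, read depth, the spread between replicates, the IgG background, the loss of Nrip1 and the expression of muscle markers could not be examined, and each statement below is a count or a position with no test between samples. Wilson 95% intervals are given for shares of regions and cover counting error only. Acsl1, Dgat2, Echs1 and Slc16a7 were named in the study from these same regions, so their presence among the genes with an increased region is not independent evidence.

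In muscle, fatty acids cross the membrane with the help of CD36 and transport proteins, are bound in the cytosol by FABP, and are joined to coenzyme A by acyl-CoA synthetases. The acyl-CoA then either enters mitochondria through the carnitine shuttle and is shortened by beta-oxidation, or is esterified stepwise by the glycerol-phosphate acyltransferase, the lipins and the diacylglycerol acyltransferases into triglyceride, which perilipins coat in droplets and lipases break down again. Nrip1 encodes RIP140, a corepressor that binds nuclear receptors, among them the PPARs and the estrogen-related receptors, whose targets include many genes of these pathways.

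The PPARs bind with RXR to a direct repeat of AGGTCA with 1 base between the copies. The regions nearest to the lipid metabolism genes were searched on both strands for this 13-base repeat with at most 2 mismatches, and all 12 matches were at 2 mismatches. Those at genes described below are printed 5′ to 3′ on the strand of the match (mm10) with 20 bases on each side, the repeat in capitals. Matches inside increased regions came from Acsl1 (chr8:46508258-46508310, plus strand), Echs1 (chr7:140116472-140116524, minus strand, 22 bp from the start of the gene) and the distant Gpam region (chr19:54735076-54735128, plus strand).
Acsl1: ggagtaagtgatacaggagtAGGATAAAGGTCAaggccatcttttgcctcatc
Echs1: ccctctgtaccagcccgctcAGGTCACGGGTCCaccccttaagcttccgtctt
Gpam, increased region: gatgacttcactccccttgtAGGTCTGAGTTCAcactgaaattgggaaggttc

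Matches inside decreased regions came from the intronic Gpam region (chr19:55097813-55097865, plus strand), Lpin1 (chr12:16569690-16569742, minus strand), Lpin2 (chr17:71194537-71194589, minus strand, and chr17:71207513-71207565, plus strand), Plin4 (chr17:56107365-56107417 and chr17:56111245-56111297, plus strand, and chr17:56111281-56111333, minus strand) and Acacb (chr5:114146143-114146195, minus strand, 366 bp from the start of the gene). The remaining match lay in the Acsl4 region.
Gpam, decreased region: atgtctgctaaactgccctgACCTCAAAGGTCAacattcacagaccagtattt
Lpin1: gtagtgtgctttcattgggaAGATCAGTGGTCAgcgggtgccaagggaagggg
Lpin2, first: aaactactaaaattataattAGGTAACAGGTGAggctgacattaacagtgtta
Lpin2, second: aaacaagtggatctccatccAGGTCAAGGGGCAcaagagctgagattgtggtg
Plin4, first: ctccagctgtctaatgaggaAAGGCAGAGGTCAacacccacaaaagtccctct
Plin4, second: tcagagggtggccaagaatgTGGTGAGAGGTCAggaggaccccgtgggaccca
Plin4, last: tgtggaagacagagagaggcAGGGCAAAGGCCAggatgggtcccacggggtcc
Acacb: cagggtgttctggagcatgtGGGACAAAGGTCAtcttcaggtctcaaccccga

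At 6 genes, Cd36, Echs1, Dgat2, Acsl6, Plin4 and Acacb, a differential region covered an annotated start. For 4 of them a stretch before the start is shown. For Cd36 it is the 150 bases before the 5′ end of the gene (chr5:17888802-17888951, minus strand), with the E-box CAGCTG in capitals. For the others it is a RefSeq promoter (GRCm38.p6): Echs1 (chr7:140116477-140116671, minus strand, PPAR-type repeat in capitals), Acsl6 (chr11:54314653-54314895, plus strand) and Plin4 (chr17:56109804-56110032, minus strand). The Acsl6 stretch ends short of the covered start at 54314988, and 95 of its bases lay inside the region. Cd36 and Echs1 were under increased regions, Plin4 under a decreased one and Acsl6 partly under a decreased one.
Cd36: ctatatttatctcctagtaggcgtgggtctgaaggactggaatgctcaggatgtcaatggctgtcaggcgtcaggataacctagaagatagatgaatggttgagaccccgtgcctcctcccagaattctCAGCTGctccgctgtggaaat
Echs1: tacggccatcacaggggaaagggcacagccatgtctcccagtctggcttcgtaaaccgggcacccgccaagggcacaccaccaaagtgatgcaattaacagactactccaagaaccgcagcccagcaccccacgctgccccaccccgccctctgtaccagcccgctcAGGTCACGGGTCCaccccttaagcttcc
Acsl6: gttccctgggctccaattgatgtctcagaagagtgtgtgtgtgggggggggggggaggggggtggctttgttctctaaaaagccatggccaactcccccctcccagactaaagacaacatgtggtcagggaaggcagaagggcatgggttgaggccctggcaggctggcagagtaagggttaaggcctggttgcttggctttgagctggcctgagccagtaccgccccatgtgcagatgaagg
Plin4: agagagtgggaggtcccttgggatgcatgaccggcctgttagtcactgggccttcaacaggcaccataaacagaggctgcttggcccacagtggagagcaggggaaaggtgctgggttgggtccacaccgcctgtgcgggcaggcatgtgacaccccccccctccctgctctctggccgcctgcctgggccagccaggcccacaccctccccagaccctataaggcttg

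Of the 51 genes, 7 were nearest to an increased region: Cd36, Acsl1, Echs1, Dgat2, Gpam, Scd2 and Slc16a7. This was 13.7% of the genes, where the share among all protein-coding genes was 10.6%. Another 11 genes were nearest to a decreased region, namely Slc27a1, Acsl3, Acsl4, Acsl6, Gpam, Lpin1, Lpin2, Mgll, Plin4, Acacb and Pdk4, or 21.6% against 17.8% of all protein-coding genes. Gpam was in both sets and 34 genes were in neither. Without the 4 genes named in the study, 3 of 47 genes (6.38%) were nearest to an increased region and 11 (23.4%) to a decreased one. Since those genes were named for having an increased region, their removal had to lower the first share. Both shares of the full list lay near the background. Counting either direction, 17 of 51 genes (33.3%) had a nearest region where 25.4% of all protein-coding genes did.

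The 27 nearest regions were 10 increased and 17 decreased, which put the increased share at 37.0% (Wilson 95% interval 21.5 to 55.8%). Of all differential regions on the chromosomes, 3917 were increased and 7262 decreased, an increased share of 35.0%, inside that interval. With all chromosomes pooled, lipid metabolism genes thus met increased and decreased regions in nearly the proportion of the lists as a whole. This match depended on chromosomes 7 and 10, which held 6 of the 10 increased regions. Averaged over the 27 regions, the increased share of the chromosome each lay on was 42.7%. Outside chromosomes 4, 7, 10 and 16 the nearest regions were 4 increased and 17 decreased, where 30.2% of all regions were increased. The Wilson interval for that smaller set, given below, still holds the 30.2%.

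**Figure D1:**
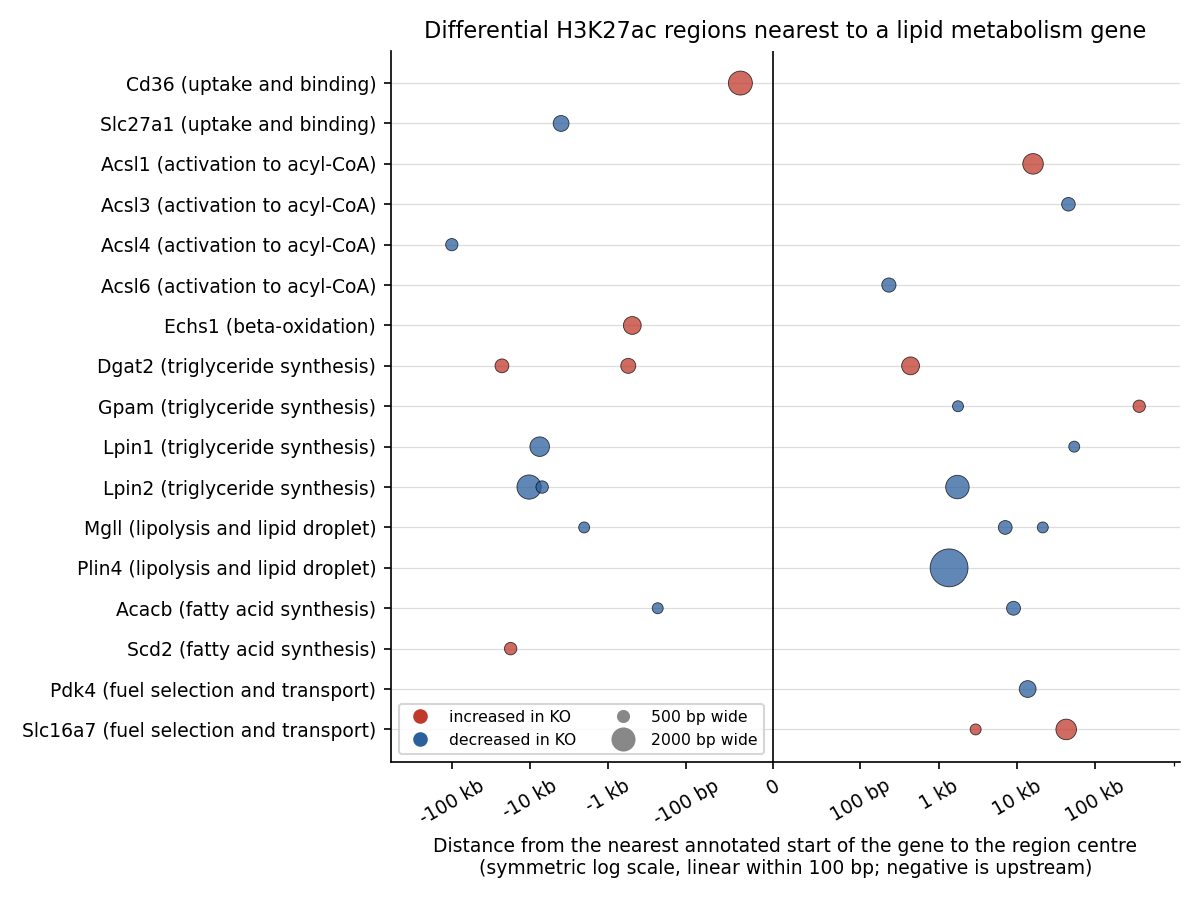
Position of each of the 27 regions nearest to a lipid metabolism gene, 1 line a gene, as the signed distance from the nearest annotated start to the region centre (symmetric log axis), with point area following region width and colour giving direction. Regions centred within 1 kb of a start were increased at Cd36, Echs1 and Dgat2 and decreased at Acsl6 and Acacb.

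Within 100 kb of a start, 15 genes (29.4%) had an increased region where 24.1% of all protein-coding genes did, and 27 genes (52.9%) had a decreased region where 42.7% did. Cd36, Acsl6 and Cpt2 had both kinds. The 78 regions concerned were 27 increased and 51 decreased (34.6% increased, Wilson 95% interval 25 to 45.7%), and among all regions within 100 kb of a protein-coding start 32.5% were increased. Counting either direction, 39 of 51 genes (76.5%) had a region that close, where 57.9% of all protein-coding genes did. The other 12 genes had none. Of the regions, 9 were shared by a pair of neighbouring genes: 4 by Dgat2 and Mogat2, 4 by Plin4 and Plin5 and 1 by Hadha and Hadhb.

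Regions centred within 1 kb of an annotated start were increased at 3 genes, Cd36, Echs1 and Dgat2 (5.88%, background 2.32%), and decreased at 2, Acsl6 and Acacb (3.92%, background 2.78%). Of these 5 genes, Echs1 and Dgat2 are on chromosome 7 and were among those named in the study. Without the 4 named genes, 1 of 47 (2.13%) had an increased region at a start. The regions were 4 increased and 2 decreased, 66.7% increased, with a Wilson 95% interval of 30 to 90.3% that holds both the 44.4% of all regions at protein-coding starts and the 35.0% of the lists.

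**Figure D2:**
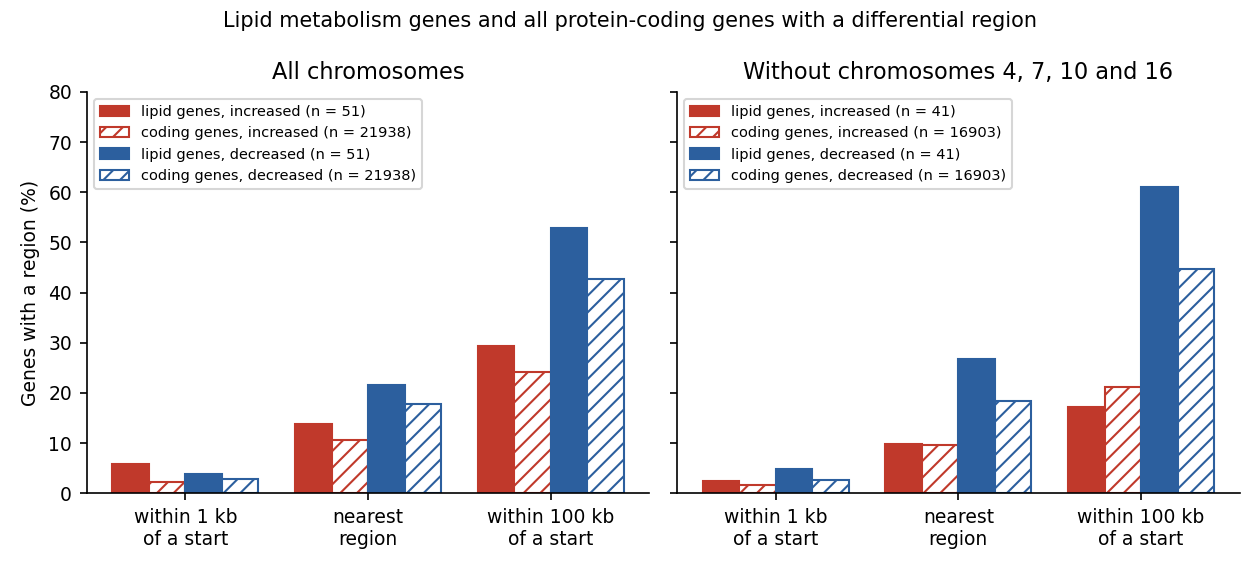
Percentage of the 51 lipid metabolism genes (filled bars) and of all 21938 protein-coding genes (hatched bars) with a region within 1 kb of a start, as nearest region, or within 100 kb, for increased (red) and decreased (blue) regions, with all chromosomes on the left and without chromosomes 4, 7, 10 and 16 on the right. Within 100 kb, 52.9% of lipid genes had a decreased region with all chromosomes and 61.0% without those 4, against 42.7% and 44.7% of coding genes.

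Among the 7 genes of fatty acid uptake and binding, Cd36 stood under an increased region and Slc27a1 held a decreased one. These 2 genes were 28.6% of the 7, near the 25.4% of all protein-coding genes with a nearest region. Within 100 kb, 4 genes (57.1%) had a region, where 57.9% of all protein-coding genes did. CD36 is the main fatty acid translocase of the muscle membrane. Its region (chr5:17887647-17890032) was 2386 bp wide, wider than 94.6% of increased regions, was centred 38 bp upstream of the 5′ end of the gene and covered it. Its GC content of 36.67% was low for an increased region, at the 8.45th percentile. A decreased region of 941 bp lay 91542 bp away from another Cd36 start, with Sema3c as its nearest gene. Slc27a1 encodes the fatty acid transport protein FATP1 and had a decreased region of 1046 bp (chr8:71574696-71575741) in an intron, 3995 bp upstream of an internal start and 6336 bp into the gene from its 5′ end.

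The other uptake genes had weaker ties. Fabp3, the heart and muscle fatty acid binding protein, had 3 decreased regions within 100 kb, the closest at 76230 bp with Snrnp40 as its nearest gene. Angptl4, a PPAR target that encodes an inhibitor of lipoprotein lipase, had 1 decreased region at 27257 bp, nearest to Rab11b. Lpl, which encodes that lipase, Slc27a4 and the adipocyte binding protein gene Fabp4 had none within 100 kb.

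The acyl-CoA synthetases, which commit fatty acids to use in the cell, had a nearest region at 4 of 5 genes (80.0%), 1 of them increased. Among all protein-coding genes, 25.4% had one of either direction. Within 100 kb the share was again 80.0%, where 57.9% of all protein-coding genes had a region. At Acsl1, the main muscle isoform, an increased region of 1755 bp (chr8:46507993-46509747) lay in an intron, 16038 bp past an internal start and 37833 bp past the 5′ end. It held the PPAR-type repeat printed above. At Acsl6 the region was decreased (chr11:54314801-54315638, 838 bp) and covered an internal start at position 54314988, 231 bp before its centre and 11421 bp inside the gene, so it lay over an alternative start and not the first one. An increased region lay 30888 bp from an Acsl6 start in an intron of the neighbouring Meikin.

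Acsl3 and Acsl4, isoforms of the lipid droplet and of polyunsaturated fatty acids respectively, had single decreased regions in intergenic DNA. The Acsl3 region (769 bp) was 45437 bp past the nearest start, and the Acsl4 region (628 bp) was 99489 bp upstream. Acsl5 had none within 100 kb. The family thus held an increased region at Acsl1 and decreased ones at Acsl3, Acsl4 and Acsl6.

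None of the 4 genes of mitochondrial import was nearest to a region of either direction, where 25.4% of all protein-coding genes were. Cpt1b, the muscle form of the carnitine palmitoyltransferase that gates entry, had an increased region 62399 bp away, nearest to Ncaph2. Cpt2, its partner on the inner membrane, had an increased region at 38139 bp, nearest to Magoh, and 3 decreased regions, the closest at 68629 bp. Cpt1a and the carnitine carrier gene Slc25a20 had none within 100 kb. The closest region to Slc25a20 was a decreased one at 117354 bp.

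Of the 10 genes of beta-oxidation, only Echs1, which encodes the short-chain enoyl-CoA hydratase, was nearest to a differential region (10.0%, background 25.4%). The increased region (chr7:140116308-140117629, 1322 bp, joined from 2 peaks) covered the 5′ end of Echs1, was centred 492 bp upstream of it, and had its centre inside the adjoining gene Paox. The mark there could therefore belong to either gene by position. The other genes showed regions only at a distance. Acadvl, the very long-chain acyl-CoA dehydrogenase gene, had a decreased region of 1542 bp (chr11:70018702-70020243) 4061 bp away, but that region sat at the promoter of Dlg4.

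Hadha and Hadhb, the subunits of the trifunctional protein, shared 1 increased region at 46368 and 81311 bp, nearest to Tyms. Decreased regions lay 86094 bp from Acads and 24203 bp from Acaa1a, with Sppl3 and Oxsr1 as their nearest genes. The medium- and long-chain dehydrogenase genes Acadm and Acadl, Hadh and the thiolase gene Acaa2 had none within 100 kb. For Acadl the closest was an increased region at 112755 bp. By the nearest-gene rule, the beta-oxidation genes apart from Echs1 were thus not tied to a differential region. With so few genes, the difference from the background share was not tested.

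Of the 8 genes of triglyceride synthesis, all had a region within 100 kb, where 57.9% of all protein-coding genes did, and 4 were nearest to one. Dgat2, which encodes an acyltransferase of the last step, had 3 nearest regions, all increased. One of 935 bp (chr7:99182806-99183740) was centred 554 bp upstream of the 5′ end, another of 1322 bp (chr7:99179196-99180517) was 437 bp past an internal start and 2863 bp into the gene, and the last of 794 bp (chr7:99205089-99205882) was 22766 bp upstream. A further increased region within 100 kb, 30216 bp from a Dgat2 start, was nearest to Uvrag. None of the 3 nearest regions held the PPAR-type repeat at 2 mismatches or fewer, which says only that these letters were not in these windows.

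The neighbour Mogat2, a monoacylglycerol acyltransferase gene, had 5 increased regions within 100 kb, of which 4 were those of Dgat2. Within 1 Mb of the Dgat2 starts there were 12 increased and no decreased regions, on chromosome 7, where 97.7% of all regions were increased. Dgat1, which encodes the other diacylglycerol acyltransferase, had a decreased region at 22388 bp that was nearest to Hsf1, the heat shock factor gene.

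Earlier steps of the pathway carried mainly decreased regions, in lists where 35.0% of all regions were increased. Lpin2, a lipin that turns phosphatidic acid into diacylglycerol, had 3 decreased regions in its introns, of 2436 bp (chr17:71193187-71195622), 2286 bp (chr17:71205268-71207553) and 639 bp (chr17:71224138-71224776). They were 11844, 23850 and 41897 bp into the gene. Another decreased region within 100 kb, 37648 bp from a Lpin2 start, was nearest to Emilin2. The widest intronic region held 3 copies of the AP-1 site TGAGTCA or TGACTCA and the next held 2. Lpin1, the main lipin of muscle, had a decreased intronic region of 1586 bp (chr12:16569148-16570733) 41026 bp into the gene, and another of 501 bp in intergenic DNA 53857 bp past a start. Lpin3 had 2 decreased regions within 100 kb, the closest at 87860 bp. Agpat2, the acyltransferase of the step before the lipins, also had 2, the closest at 53160 bp, nearest to Egfl7.

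Gpam, the mitochondrial glycerol-phosphate acyltransferase gene of the first step, had both directions. Its decreased region of 501 bp (chr19:55097437-55097937) lay in an intron, 1764 bp past an internal start, while its increased region of 635 bp was 364220 bp away in intergenic DNA with no closer coding gene. Only the decreased one lay within 100 kb of the gene. Counted within that window, the pathway held increased regions at Dgat2 and Mogat2, which share them, and decreased regions at the other 6 genes.

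**Figure D3:**
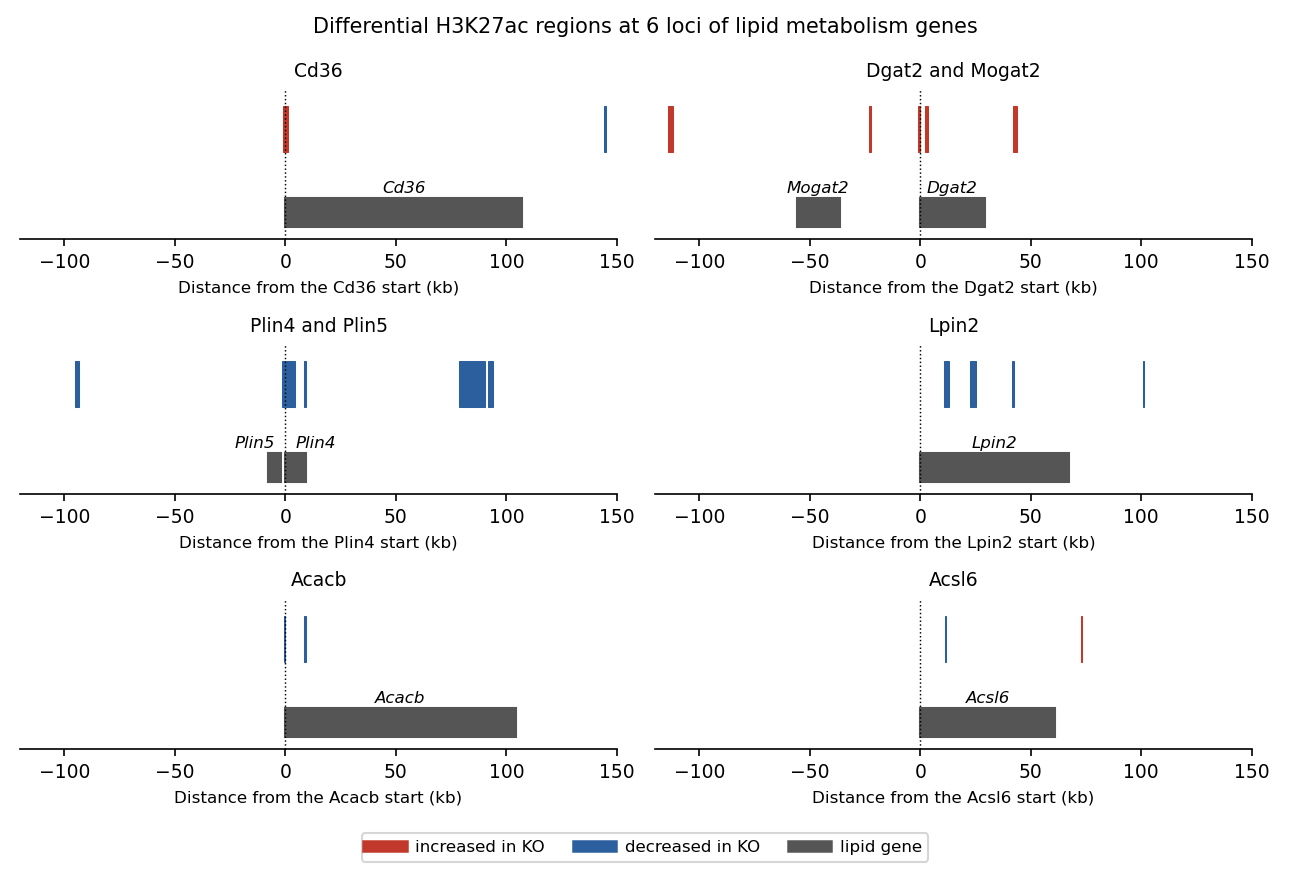
Differential regions (red increased, blue decreased) and gene bodies (grey) at 6 loci, plotted in kb from the 5′ end of the first-named gene in the direction of its transcription. An increased region lies at the gene start of Cd36 and of Dgat2, and others at Dgat2 lie farther off. Of the 4 decreased regions at Lpin2, 3 lie inside the gene and the other beyond its 3′ end. The widest region over a start is the decreased one at Plin4.

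Among the 7 genes of lipolysis and the lipid droplet, no gene was nearest to an increased region and 2 (28.6%), Plin4 and Mgll, were nearest to decreased ones. Among all protein-coding genes the shares were 10.6% and 17.8%. Within 100 kb, 2 genes (28.6%) had an increased region and 4 (57.1%) a decreased one, where 24.1% and 42.7% of all protein-coding genes did. Plin4 encodes a droplet coat protein found in muscle and fat. Its region was 5942 bp wide (chr17:56105475-56111416, joined from 2 peaks), wider than 99.2% of decreased regions, and covered the gene start with its centre 1357 bp inside the gene. It held 3 PPAR-type repeats, 2 copies of the estrogen-related receptor site TCAAGGTCA, which contains the AGGTCA of the PPAR half-site, and 7 E-boxes. Another decreased region of 653 bp lay in an untranslated region of Plin4, 8790 bp away from its start, with Hdgfl2 as the nearest gene.

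Plin5, which couples droplets to mitochondria in oxidative muscle, lies beside Plin4 and shared 4 of its decreased regions. The 5942-bp region was 8853 bp from the Plin5 start. A decreased region of 12139 bp at Sh3gl1 was also within 100 kb of Plin4, at 84475 bp. Within 1 Mb of the Plin4 start there were 1 increased and 10 decreased regions, on chromosome 17, where 21.2% of all regions were increased.

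Mgll, the monoacylglycerol lipase gene of the last step of lipolysis, had 3 decreased intronic regions of 789, 501 and 501 bp that were 7744, 22025 and 96691 bp into the gene, and 2 more within 100 kb that were nearest to Mcm2 and Tpra1. Pnpla2, which encodes the adipose triglyceride lipase of the first step, had 4 increased regions within 100 kb, the closest at 11249 bp and nearest to Pidd1, on chromosome 7. Its coactivator gene Abhd5 had a decreased region at 42015 bp, nearest to Ano10. Plin2, the general droplet coat gene, had an increased region at 80607 bp, nearest to Rraga. The hormone-sensitive lipase gene Lipe had none within 100 kb, the closest being an increased region at 146738 bp.

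In fatty acid synthesis, 5 of 7 genes (71.4%) had decreased regions within 100 kb and 1 (14.3%), Scd2, an increased one. Among all protein-coding genes those shares were 42.7% and 24.1%. By the nearest-gene rule, 1 gene (14.3%) had a decreased region and 1 (14.3%) an increased one. The background for that rule was 17.8% and 10.6%. Acacb encodes the acetyl-CoA carboxylase at the outer mitochondrial membrane, whose product inhibits CPT1. A decreased region of 501 bp (chr5:114146052-114146552) covered its 5′ end, with its centre 233 bp upstream, and another of 802 bp (chr5:114155167-114155968) was in an intron 9032 bp inside. Within 1 Mb of Acacb there were no increased and 25 decreased regions, on chromosome 5, where 30.3% of all regions were increased. Acaca, the cytosolic carboxylase gene, had 2 decreased regions at 28349 and 32298 bp, nearest to Tada2a. Fasn, the fatty acid synthase gene, had a decreased region at 81115 bp, nearest to Ccdc57.

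The elongase genes Elovl5 and Elovl6 had decreased regions at 90267 and 66055 bp. The one for Elovl6 lay in its own intron but closer to the start of Egf. The Scd2 region (chr19:44275726-44276369, 644 bp) was 17627 bp upstream of this stearoyl-CoA desaturase gene, and the neighbouring Scd1 had none within 100 kb.

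The 3 genes of fuel selection and transport all had regions within 100 kb, where 57.9% of all protein-coding genes did. By the nearest-gene rule 2 of the 3 (66.7%) had a region, where 25.4% of all protein-coding genes did. Pdk4, a kinase that shuts off pyruvate oxidation and a known PPAR target, had a decreased region of 1173 bp (chr6:5481982-5483154) in intergenic DNA 13693 bp from its closest start, beyond the 3′ end. Slc16a7, the monocarboxylate transporter MCT2, had 2 increased intronic regions of 1760 bp (chr10:125265398-125267157) and 501 bp (chr10:125325323-125325823), 123188 and 63892 bp into the gene. Ucp3, the muscle uncoupling protein gene, had 6 increased regions within 100 kb, the closest at 21042 bp over the adjoining Ucp2. Within 1 Mb there were 24 increased and no decreased regions at Ucp3, and 10 increased and none decreased at Slc16a7. On their chromosomes, 7 and 10, 97.7% and 69.1% of all regions were increased.

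The direction of the regions varied with the chromosome. On chromosome 7, 973 regions were increased and 23 decreased (97.7% increased), and on chromosome 10 the share was 69.1%, while on chromosomes 4 and 16 it was 7.53% and 7.80%. The list had 6 genes on chromosome 7 (Echs1, Dgat2, Mogat2, Pnpla2, Lipe and Ucp3), Slc16a7 on chromosome 10, and Fabp3, Cpt2 and Plin2 on chromosome 4. Of the 10 increased nearest regions, 6 were on chromosomes 7 and 10, and within 100 kb 19 of 27 were, with no decreased region beside them in either count. On chromosomes 4 and 16 no region was nearest to a lipid gene, and within 100 kb 2 were increased and 6 decreased. The increased ones, on chromosome 4, were the single Plin2 region and the region closest to Cpt2, so these went against the balance of their chromosome. Echs1, Dgat2 and Slc16a7 were on chromosomes 7 and 10 and Acsl1 was not. The part of a chromosome-wide difference in these calls was not tested.

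**Figure D4:**
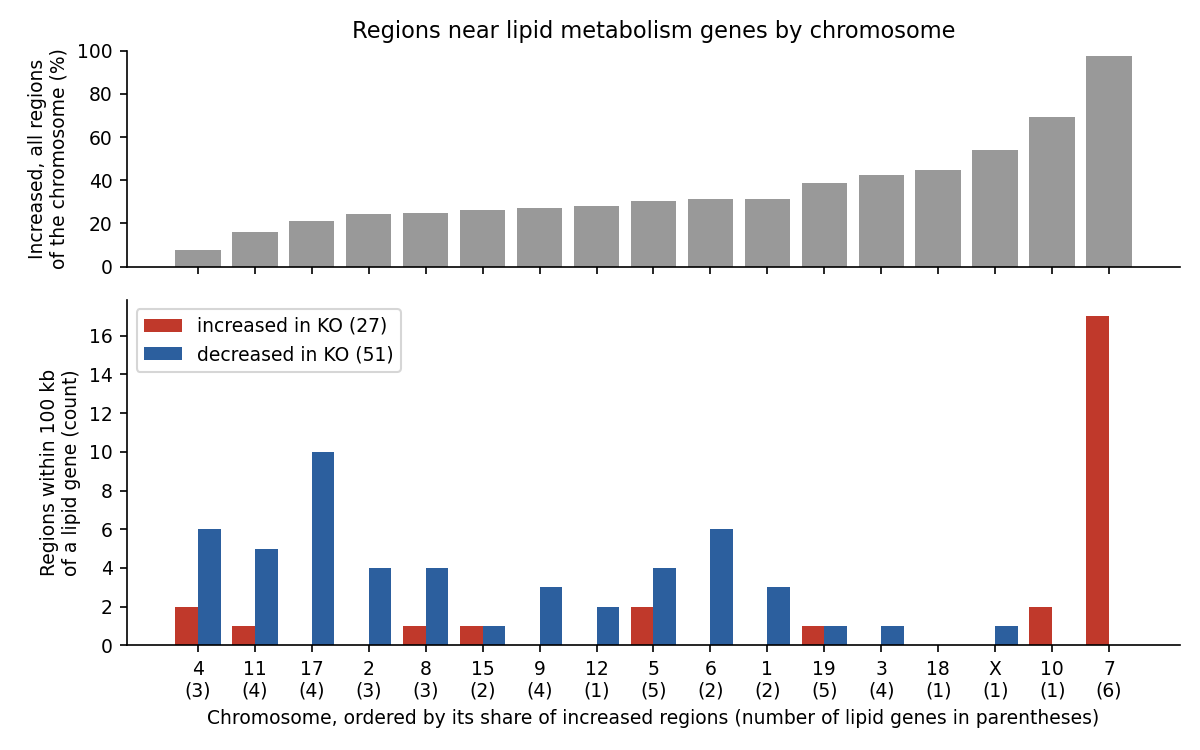
Upper panel, percentage of all differential regions on each chromosome that were increased; lower panel, number of increased (red) and decreased (blue) regions within 100 kb of a lipid metabolism gene on the same chromosomes. Chromosome 7, at 97.7% increased, and chromosome 10 hold 19 of the 27 increased regions and none of the 51 decreased ones.

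Outside chromosomes 4, 7, 10 and 16, 41 of the genes remained with 16903 protein-coding genes as background. Cd36, Acsl1, Gpam and Scd2 were nearest to an increased region (9.76%, background 9.63%), and the 11 genes nearest to a decreased one made 26.8% (background 18.3%). Their nearest regions were 4 increased and 17 decreased, 19% increased (Wilson 95% interval 7.67 to 40.0%), against 30.2% of all regions there. Within 100 kb, 7 genes (17.1%) had an increased region where 21.2% of coding genes did, and 25 (61.0%) a decreased one where 44.7% did. Those regions were 6 increased and 45 decreased, 11.8% increased (Wilson 95% interval 5.51 to 23.4%), against 27.8% of the regions within 100 kb of coding genes there. The lower increased share was a count over regions that cluster along the genome and share libraries, so the interval does not cover the spread between cultures.

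The distance to the closest region was taken next, since it needs no window. The median lipid metabolism gene was 347.9 kb from the closest increased region and 91.5 kb from the closest decreased one, where all protein-coding genes had medians of 337.2 and 138.0 kb. Outside those 4 chromosomes the medians were 449.5 and 86.1 kb for lipid genes and 361.8 and 122.7 kb for coding genes. The quartiles overlapped widely. For increased regions they were 71.5 and 603.9 kb for lipid genes and 105.7 and 831.2 kb for coding genes, and for decreased regions 25.7 and 471.0 kb against 35.9 and 484.8 kb. The differences between these distances were not tested.

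The regions nearest to lipid genes were next set beside the lists by place and base composition, with no test. Of the 10 increased ones, 4 (40.0%) were promoter-proximal, centred within 1 kb of a start, against 15.2% of all increased regions, and their median width was 1128 bp against 777 bp. Their median GC content was 50.02%, where all increased regions had 43.08% and all promoter-proximal increased regions 47.81%. Of the 4 promoter-proximal regions, the 3 at Dgat2 and Echs1 were on chromosome 7, and without chromosomes 4, 7, 10 and 16 the median GC content of the increased regions was 47.0%. The 17 decreased ones were close to their list, with 2 (11.8%) promoter-proximal against 11.2%, a median GC content of 48.09% against 47.86% and a median width of 789 bp against 863.5 bp. Introns held 5 of the increased and 11 (64.7%) of the decreased ones.

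**Figure D5:**
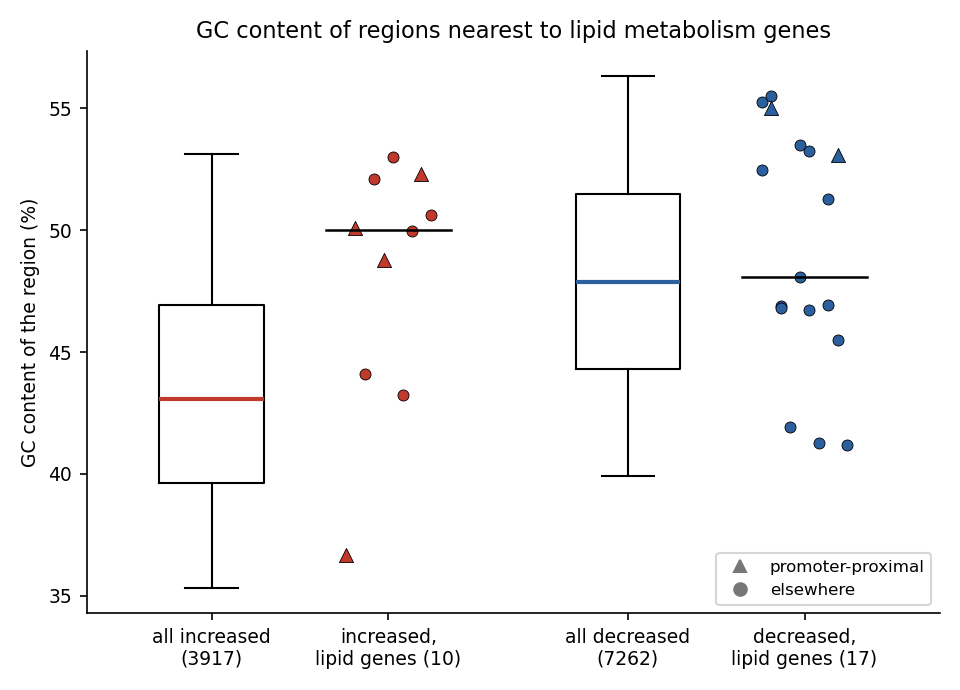
GC content of the regions nearest to lipid metabolism genes (points, triangles for promoter-proximal regions) beside all increased and all decreased regions (boxes, median and quartiles with whiskers from the 5th to the 95th percentile). The median of the 10 increased points is 50.02% against 43.08% for all increased regions, and the Cd36 region lies lowest of the promoter-proximal points at 36.67%.

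PPAR-type repeats were present in 3 of 10 increased (30%) and 7 of 17 decreased (41.2%) regions nearest to lipid genes, against 12.5% of all increased and 18.7% of all decreased regions. Per kb of region the number was 0.249 and 0.42 at lipid genes and 0.142 and 0.206 in the lists. Over the regions within 100 kb of a lipid gene the repeat was in 4 of 27 increased (14.8%) and 17 of 51 decreased (33.3%) regions, or 0.12 and 0.287 per kb, so for increased regions the number per kb was above that of the list by the nearest-gene rule and below it by the window. None of these differences was tested. Of the decreased repeats, 3 were in the single Plin4 region. The estrogen-related receptor site was in 1 decreased region, that of Plin4, and in no increased one, with 1.97% and 3.37% in the lists. E-boxes (CAGCTG), the sites of myogenic factors, were in 6 increased and 9 decreased regions, or 60.0% and 52.9% against 44.1% and 57.4%.

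The AP-1 site was in 3 increased (30%) and 5 decreased (29.4%) regions, against 25.6% and 24.7%. The TEAD site (ACATTCC or GCATTCC) was in 4 of each, or 40.0% and 23.5% against 28.6% and 27.6%. The MEF2 site was in no increased region and in 1 decreased region (5.88%), against 4.85% and 2.69%. In the RefSeq promoters, which were matched for 40 of the genes, the PPAR-type repeat was in 5 of 52 promoters (9.62%) against 3.86% of all 32851. The E-box was in 12 of these (23.1%) against 16.3%. A match is a run of letters and was not tested as a binding site.

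A further 86 genes of the same pathways, among them genes of peroxisomal oxidation, of electron transfer from the dehydrogenases and of fatty acid desaturation, were counted in the same way. Of these, 8 (9.30%) were nearest to an increased and 18 (20.9%) to a decreased region, close to the 10.6% and 17.8% of all protein-coding genes. Within 100 kb the counts were 20 (23.3%, background 24.1%) and 49 (57.0%, background 42.7%). The increased regions closest to a start were at Ucp2 (31 bp), Acss3 (55 bp) and Etfb (242 bp), on chromosomes 7, 10 and 7. Crat, which encodes carnitine acetyltransferase and buffers acetyl-CoA in muscle, had a decreased region of 2363 bp (chr2:30414675-30417037) centred 43 bp from a start. Hacd2, of the elongation cycle, had one at 451 bp on chromosome 16, and Acox3, of peroxisomal oxidation, one at 751 bp.

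Genes that mark other cells a satellite cell culture could hold were counted as well, since the lists give no expression. By the nearest-gene rule the background remained 10.6% of protein-coding genes for increased and 17.8% for decreased regions. Of 10 adipocyte markers, Lep and Pparg were nearest to increased and Adipoq and Pparg to decreased regions (20.0% each). Of 10 fibroblast markers, Col1a2, Col3a1, Dcn and Dpt (40.0%) were nearest to increased and Col1a1, Pi16 and Thy1 (30%) to decreased regions. Of 7 endothelial markers, Kdr (14.3%) was nearest to an increased region and Pecam1, Cdh5 and Cldn5 (42.9%) to decreased ones. The regions of Adipoq and Cldn5 were on chromosome 16, where 7.80% of regions were increased. The Dcn region was on chromosome 10, where 69.1% were increased. Of 16 myotube genes, Myh2, Myh3 and Mylpf (18.8%) were nearest to increased and Actn2 and Myh2 (12.5%) to decreased regions. The part of other cells in the regions at lipid genes was not tested.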

How the data were processed

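The authors aligned CUT&RUN reads to mm10 with BWA-MEM2 (BWA 2.2.1 in the submitters' processing notes) and called broad H3K27ac peaks with HOMER 4.11, keeping those that differed at least 2-fold in intensity. How replicates and IgG libraries entered the calls is not stated. They deposited 2 lists of positions (BED), 1 for each direction, whose deposited score column held 1 in every region and was not used. Starts were counted from 0 in the lists and are printed from 1. Of all regions, 1 on an unplaced sequence was left out.

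Region centres were matched to transcript starts of protein-coding genes in GENCODE M21, as the nearest gene and within 100 kb. Centres within 1 kb of a start were called promoter-proximal. GC content and motifs were read from GRCm38.p6. The search for nearest starts was tested on simulated regions. With no value per library, no test between groups was run. All lipid genes are named. The genes, lists and motifs were chosen with earlier results of these data known. Python scripts computed all counts.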

Additional observations from a re-analysis of the deposited data

How the results depend on the processing

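Of 97 recomputed values, 65 stayed within 1.5 times the value given above, or within its counting interval, and 32 moved further. The nearest-gene counts were 7 genes with increased and 11 with decreased regions, and the 100 kb counts were 15 and 27. With a window of 25 kb the genes were 8 and 13 and the regions 12 and 18, where 10.1% and 19.9% of all protein-coding genes had one. With 50 kb the decreased side had 17 genes, where 29.8% of all protein-coding genes had one, and the regions were 17 and 24. With 250 kb the increased side had 23 genes, where 42.2% of all protein-coding genes had one, and the regions were 44 and 102. Keeping regions of at least 1 kb left 5 genes nearest to a decreased region, where 9.11% of all protein-coding genes were. It left 5 increased and 6 decreased nearest regions. Within 100 kb it left 9 and 16 genes with 12 and 23 regions, where 9.35% and 24.8% of all protein-coding genes had one. Without chromosomes 4, 7, 10 and 16 the nearest increased genes and regions were 4 and 4 (19% of regions increased), and within 100 kb they were 7 and 6 (11.8%). Without the 4 genes named in the study, an alternative chosen after seeing the data, 3 genes had 3 nearest increased regions (15.0% increased). With promoter-proximal set at 0.1 kb the increased count was 1 and the decreased 0, and at 2.5 kb the decreased count was 6. With at most 1 mismatch no nearest region of either direction held a PPAR-type repeat, and in the central 500 bp 1 increased region did. These settings changed which regions, genes or matches were counted, and the reasons for the moves were not tested. Counting all annotated genes, gene 5′ ends, the nearest base of a region, nearest starts within 100 kb, or regions joined within 10 kb moved none of these counts further than that. No paired analysis was possible because the lists hold no values per library. Without values per library, leaving out a replicate could not be done and no depth limits could be given.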
